A study of Mus musculus with 7 samples.

Results

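Processed pseudogenes are DNA copies of messenger RNAs that were reverse transcribed and inserted elsewhere in the genome, so that they usually lack the introns and the promoter of the gene they came from. Most carry stop codons or frameshifts, while some are transcribed, and copies of the same kind that kept a working reading frame are called retrogenes. The testis is known for transcribing many such copies. In male germ cells the X chromosome is silenced during meiosis, and several autosomal retrogenes, such as the phosphoglycerate kinase gene *Pgk2*, are known to stand in there for their X-linked parents.

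In RNA-seq of total testis, 150 processed pseudogenes were expressed at a mean of 5 CPM (read counts scaled to a common library size) or more in the fl/Y controls. They were chosen by that mean over 3 libraries and by their annotation as processed or transcribed processed pseudogenes, leaving out chromosome 13 from 60 to 70 Mb. They make up 150 of 766 processed pseudogenes outside that region and of 19719 genes in the table. Of the 150, 116 were annotated as processed and 34 as transcribed processed pseudogenes. All levels below are CPM after scaling of the library sizes by the trimmed mean of M-values (TMM), and levels of different genes are compared per kb of exonic sequence. That sequence is all annotated exons of a gene, joined over its transcripts. A gene with long or many transcripts thus gets a lower level per kb.

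The study compared testes of 8-week-old male littermates on a C57BL/6 background: 3 fl/Y libraries from mice that carry a floxed *Rlim* allele, called WT in the labels, and 4 *Rlim*-KO libraries, called cKO/Y here, from mice in which Sox2-Cre deleted the gene in somatic tissues and the germline. *Rlim* is an X-linked gene encoding a ubiquitin ligase. The labels place fl/Y replicates 1 and 2 and cKO/Y replicates 1 and 2 in batch 2, and fl/Y replicate 3 and cKO/Y replicates 3 and 4 in batch 1. Nothing in the labels ties a library to a single animal, so the p-values measure the spread between these libraries.

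*Rlim* itself lay at 99.5, 70.7 and 61.5 CPM in the fl/Y libraries and at 32.6, 35.7, 21.7 and 20.7 CPM in the cKO/Y libraries, in replicate order (difference on the log2(CPM + 0.5) scale -1.38 ± 0.16 SE, limma adjusted p = 0.00870). The groups did not overlap. The adjusted p came to 0.154 without fl/Y replicate 1 and 0.634 without fl/Y replicate 3, with differences of -1.28 and -1.29. The libraries held 2822168 to 8633399 reads over the listed genes, and 3 reads, taken as the limit that a count of 0 allows, corresponded to 0.301 to 0.945 CPM. All 20 markers of spermatogonia, spermatocytes, round and elongating spermatids were listed, while 4 of 5 epididymal markers were not. The summed spermatocyte markers ranged from 681 to 1061 CPM in fl/Y and from 471 to 1130 CPM in cKO/Y, and no marker of the 11 cell type lists passed an adjusted p of 0.05 between genotypes. In this bulk tissue, fewer cells of a type and less RNA per cell cannot be told apart.

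Together the 150 pseudogenes took a small share of the transcriptome, 0.325 ± 0.0366% of the summed CPM in fl/Y (SD, n = 3) and 0.324 ± 0.0660% in cKO/Y (SD, n = 4). These means mix the batches, between which the share did not overlap. In batch 1 it was 0.3555% in fl/Y and 0.381 and 0.372% in cKO/Y. In batch 2 it was 0.284 and 0.334% in fl/Y and 0.240 and 0.304% in cKO/Y. Each library had between 118 and 138 of the 150 at 5 CPM or more. The 10 most abundant held 37.7 to 45.7% of the CPM of the whole group, and the median member had a fl/Y mean of 10.7 CPM. The median coefficient of variation was 23.3% among the fl/Y and 26.4% among the cKO/Y libraries.

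The most abundant was 1700019M22Rik on chromosome 12 (GRCm38, 96046767 to 96047120, minus strand), a single exon of 354 bases. It lay at 212, 239 and 233 CPM in fl/Y and at 203, 175, 175 and 215 CPM in cKO/Y, and it also led per length, at 643 CPM per kb in fl/Y. Its closest coding gene was 1700084M14Rik on the X chromosome, at 73.8 CPM per kb, with an identity of 92.0% over the aligned part. Only 3.12% of its 35-base words, the length of 1 read, were found in transcripts of other genes, so most of the sequence occurs in no other annotated transcript. The 90 coding bases in which the pair differed most make that divergence visible, with differing bases in capitals and transcript sequences taken 5′ to 3′ from GENCODE M21 on GRCm38.

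1700019M22Rik: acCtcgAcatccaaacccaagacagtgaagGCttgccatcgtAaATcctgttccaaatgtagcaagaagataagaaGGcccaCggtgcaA
1700084M14Rik: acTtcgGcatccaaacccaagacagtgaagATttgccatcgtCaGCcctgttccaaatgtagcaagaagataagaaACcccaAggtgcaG

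The second was AC166361.2 on chromosome 12, a copy with 81.4% identity to the proline-rich gene *Prr30*, at 180.3, 211 and 248 CPM in fl/Y and 315, 164, 222 and 182 CPM in cKO/Y. Its highest value, in cKO/Y replicate 1, and its lowest, in cKO/Y replicate 2, both came from batch 2 of the same genotype. The third and the fourth were both copies of *Rnf19a*, a ubiquitin ligase gene on chromosome 15, and both lie on chromosome 9. AC107819.2 lay at 229.8, 141 and 197 CPM in fl/Y and 188, 209, 199 and 191 CPM in cKO/Y. For 1700001J11Rik the values were 225, 139 and 201 CPM in fl/Y and 214, 232, 241 and 204 CPM in cKO/Y. Both were lowest in fl/Y replicate 2, and 45.6% and 36.3% of their words also occurred in other transcripts. Per length they stood at 77.9 and 70.8 CPM per kb, against 141 CPM per kb for *Rnf19a* in the same fl/Y libraries.

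Both copies hold long open frames, although each has 2 gaps that shift the frame against the *Rnf19a* coding sequence. The longest open frame was 611 codons in AC107819.2 and 771 codons in 1700001J11Rik, where the *Rnf19a* coding sequence has 840. Many of the bases that set them apart from *Rnf19a* are shared by the 2 copies, as the 90-base stretch with the most differences shows. Capitals in the copies mark bases that differ from *Rnf19a*, and capitals in *Rnf19a* mark positions where either copy differs.

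AC107819.2: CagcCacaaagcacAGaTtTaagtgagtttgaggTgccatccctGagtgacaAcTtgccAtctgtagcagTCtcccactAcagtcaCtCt
1700001J11Rik: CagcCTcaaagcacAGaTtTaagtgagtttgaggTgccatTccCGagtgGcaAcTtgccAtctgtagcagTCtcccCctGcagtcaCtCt
Rnf19a: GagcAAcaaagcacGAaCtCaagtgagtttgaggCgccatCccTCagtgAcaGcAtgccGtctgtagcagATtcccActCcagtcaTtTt

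The remaining 6 of the 10 had fl/Y means of 70.01 to 98.9 CPM. 1700022A21Rik resembles *Gpd1l*, a glycerol-3-phosphate dehydrogenase gene, and lay at 90.9, 94.1 and 112 CPM in fl/Y and 89.3, 90.5, 139 and 123 CPM in cKO/Y. Gm11780, a copy of the protein tyrosine phosphatase gene *Ptp4a2*, lay at 107, 79.8 and 83.5 and 59.6, 98.3, 74.9 and 86.3 CPM. Dynlt1-ps1, a dynein light chain copy, lay at 83.8, 83.8 and 70.8 and 64.2, 86.9, 84.7 and 79.5 CPM. Its sequence is identical to *Dynlt1f* over its full 342 bases, so reads of the 2 cannot be told apart by sequence. 2810025M15Rik contains a stretch like the ribosomal protein gene *Rpl37a* and overlaps exons of *Rasal2* on the other strand; it lay at 58.4, 76.5 and 82.2 and 64.2, 58.0, 89.1 and 91.8 CPM. Whether the counting used strand is not given in the sources used here. Gm18609 on chromosome 6 lay at 77.1, 64.2 and 72.9 and 72.0, 83.5, 71.8 and 67.9 CPM. Spanxn4, named for the SPANX-N family of sperm proteins, had no coding match under the rules given below. It lay at 70.1, 92.5 and 47.5 and 69.2, 64.0, 41.6 and 69.5 CPM. In all 10 the genotype ranges overlapped.

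**Figure D1:**
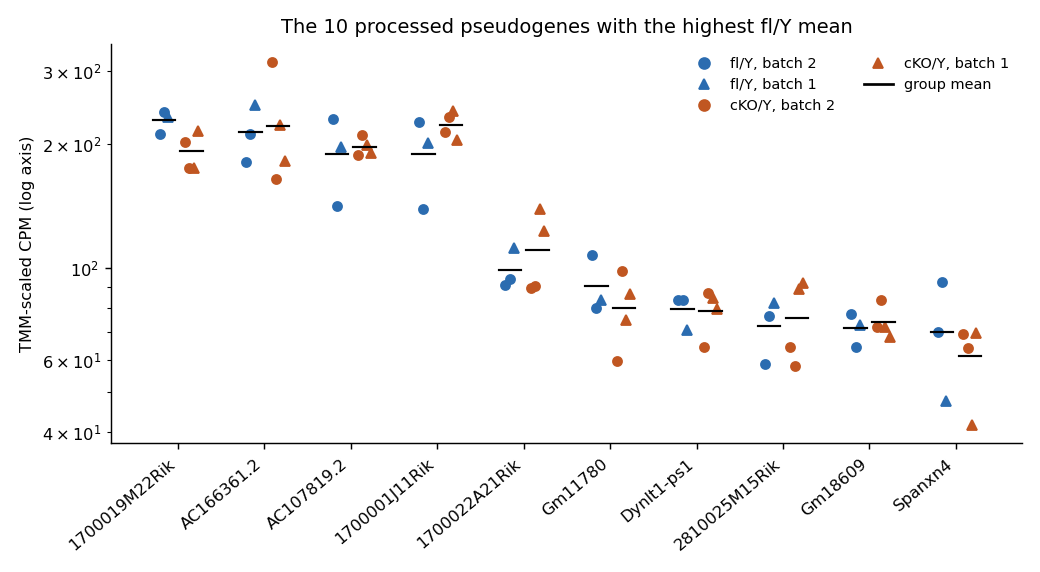
TMM-scaled CPM (log axis) of the 10 processed pseudogenes with the highest fl/Y mean, 1 point per library (blue fl/Y, n = 3; orange cKO/Y, n = 4; circles batch 2, triangles batch 1; black lines group means). The fl/Y means run from 228 CPM for 1700019M22Rik to 70.01 CPM for Spanxn4, and the points of the genotypes overlap for each of the 10.

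What the members share beyond their level was read from the annotation and from alignment to coding transcripts. A closest coding gene was found for 132 of 150, with a median identity of 92.0% (range 63.9 to 100%). The other 18 had no such match over 150 bases or more. Matches on the opposite strand, or to a coding gene that overlaps the member, were not counted. A single exon was annotated for 122. The median member shared 27.9% of its 35-base words with transcripts of other genes; 19 shared none and 13 shared 90% or more. In the 13, among them Dynlt1-ps1, Tpt1-ps3 and Ube2n-ps1 with all words shared, a read count cannot be assigned to the pseudogene with certainty. Exons of another gene were overlapped by 18 members, 5 of them on the same strand.

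Some open reading frames were long. The longest was taken in any forward frame of the transcript, without asking whether it is the frame of the closest gene. In 36 members its length reached at least 90% of the coding length of that gene. Among these were Gm8730 with all 317 codons of the ribosomal stalk gene *Rplp0*, and Gm6768 with 625 codons, as many as *Ncoa4*, the gene of a receptor for ferritin autophagy. Gm6981 had 335 codons where the glycolytic gene *Gapdh* has 333. Also counted was 1700019M22Rik, with 117 codons where its closest gene has 78. By contrast Kif4-ps, a copy of the mitotic kinesin gene *Kif4* at 58.2, 45.0 and 43.2 CPM in fl/Y and 44.4, 49.8, 39.7 and 47.8 CPM in cKO/Y, kept no open frame longer than 84 of 1231 codons.

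Set beside the 616 processed pseudogenes below the level, the members were longer, with a median exonic length of 1220.5 against 824 bases, under a rule that did not correct for length. Inside another gene lay 30 of 150 (20.0%) against 291 of 616 (47.2%). On the X chromosome lay 20 of 150 (13.3%) against 27 of 616 (4.38%), so 42.6% of the X-linked processed pseudogenes listed were members. Identity to the closest gene was 92.0% at the median against 93.3%. These shares are descriptions of a group chosen by level and were not tested.

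Grouped by the function of the closest gene, cytosolic ribosomal proteins formed the largest named group, with 20 members (108 more lay below the level). Below 2810025M15Rik, Gm8730 had the highest level in this group, at 50.6, 27.7 and 125 CPM in fl/Y and 30.7, 27.1, 148 and 67.4 CPM in cKO/Y, and the group ran down to Gm4925, a partial *Rps12* copy, at a fl/Y mean of 5.01 CPM. Translation factors gave 3: Gm13456 and Gm5869, copies of the elongation factor gene *Eef1a1*, and Tpt1-ps3. Gm13456 lay at 23.8, 27.5 and 23.1 CPM in fl/Y and 18.9, 26.5, 27.7 and 26.5 CPM in cKO/Y. RNA binding proteins gave Gm8276 (poly(A)-binding *Pabpc1*) at a fl/Y mean of 6.50 CPM, Gm4916 (*Rbm31y*) at 6.43 and Gm6244 (*Hnrnpa1*) at 6.35 CPM.

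Chromatin genes gave H2afy3, a macroH2A copy, at a fl/Y mean of 10.6 CPM, and Hist3h2bb-ps at 7.72 CPM. A pair of tubulin copies formed the cytoskeletal group, Tubb4b-ps1 at 30.9 and Gm14150 (*Tuba1b*) at 6.23 CPM. Glycolysis was represented by Gm6981 (*Gapdh*) at 45.5 CPM and Gm7556 (aldolase, *Aldoa*) at 10.6 CPM. Chaperones gave a pair of *Hsp90aa1* copies, Gm12346 at 17.7 and Gm5844 at 6.75 CPM. The ubiquitin group of 6 held the *Rnf19a* pair, Gm1821 (polyubiquitin *Ubb*), AC160031.3 and Ube2n-ps1 (the conjugating enzyme *Ube2n*) and Gm4772 (*Rnf41*). Complex I genes gave BC002163 (*Ndufs5*) at 5.85 and Gm11927 (*Ndufs3*) at 5.02 CPM, and Gm4202 (14-3-3 zeta, *Ywhaz*) at 6.19 CPM was the 1 copy in the list of signalling adaptors and GTPases, which does not hold phosphatases or their inhibitors. The other 89 with a coding match fell outside these families.

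Several members were copies of each other. Along chromosome 10, 14 members lie between 85744174 and 86912716 (GRCm38), of 30 processed pseudogenes listed there. Of these, 9 (AC151904.2, AC151904.4, AC151904.8, AC132384.6, AC132384.9, AC132384.10, AC132384.11, AC132384.13 and AC132384.17) belong to 1 sequence family (80% identity over 50% of the length). None of the 9 had a coding match under the rules above. Another pair, Gm6729 and Gm5174, was likewise without a coding match, AC132384.4 and AC132384.18 resemble the RNA helicase gene *Ddx21*, and Gm16270 resembles *Adnp2* in part. The fl/Y means of the 14 ran from 5.87 to 32.0 CPM. The highest was Gm6729, at 29.2, 30.7 and 36.1 CPM in fl/Y and 21.4, 20.7, 34.6 and 28.1 CPM in cKO/Y. AC151904.8 followed, at 30.3, 28.5 and 21.2 CPM in fl/Y and 18.0, 32.7, 22.04 and 23.3 CPM in cKO/Y, with overlapping groups. Between 8.01 and 81.1% of their words were shared with other transcripts, so levels within the family are uncertain.

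**Figure D2:**
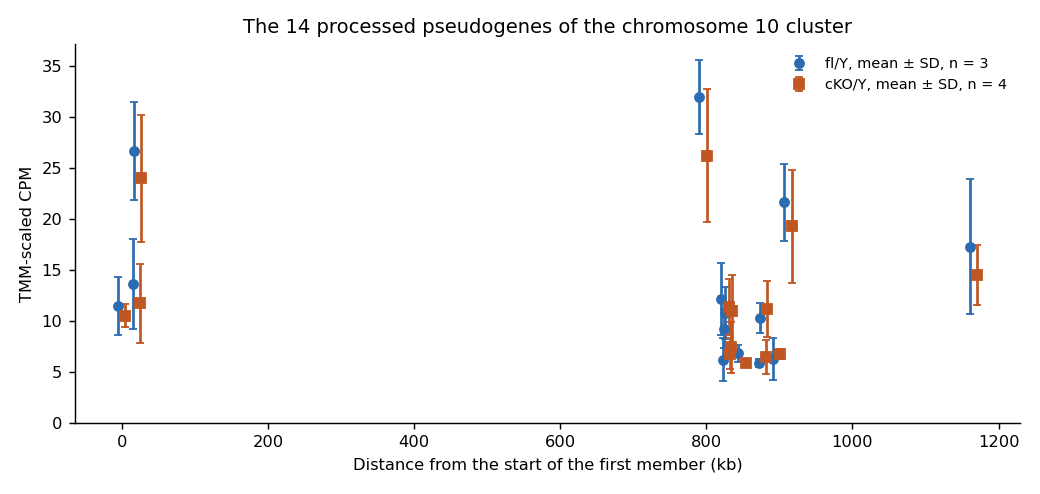
TMM-scaled CPM of the 14 processed pseudogenes of the chromosome 10 cluster against the distance in kb from the start of the first (blue circles fl/Y, mean ± SD, n = 3; orange squares cKO/Y, mean ± SD, n = 4; the pairs are set apart sideways for legibility). Gm6729 is the highest, at 32.0 CPM in fl/Y and 26.2 CPM in cKO/Y, and AC132384.17 is the lowest in fl/Y, at 5.87 CPM.

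A dispersed family consisted of 7 members, Gm5361, AC159627.1, 1700007E05Rik, Gm7344, Gm12378, Gm6611 and Gm5554, all closest to AF366264 on chromosome 8. They lie on 6 chromosomes with identities of 90.2 to 94.9%, and their fl/Y means ran from 5.88 to 20.2 CPM. The highest, Gm5361, lay at 19.1, 24.0 and 17.5 CPM in fl/Y and 18.6, 24.9, 16.4 and 19.97 CPM in cKO/Y. In addition, 3 members copy *Ppp1r2*, which encodes inhibitor 2 of protein phosphatase 1. The X-linked Ppp1r2-ps7 and Ppp1r2-ps9 have diverged from it, at 76.1 and 66.5% identity, and share under 1% of their words with other genes, while Ppp1r2-ps3 on chromosome 19 is 97.5% identical and shares 72.6%. The stretch with the most differences shows how unlike the 3 copies are to a read.

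Ppp1r2-ps7: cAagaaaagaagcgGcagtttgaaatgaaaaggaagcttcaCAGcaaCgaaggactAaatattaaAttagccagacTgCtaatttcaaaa
Ppp1r2-ps9: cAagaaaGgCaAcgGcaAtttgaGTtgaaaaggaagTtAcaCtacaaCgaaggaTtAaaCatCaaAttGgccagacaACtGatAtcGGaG
Ppp1r2-ps3: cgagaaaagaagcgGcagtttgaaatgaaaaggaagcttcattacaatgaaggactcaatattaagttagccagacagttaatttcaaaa
Ppp1r2: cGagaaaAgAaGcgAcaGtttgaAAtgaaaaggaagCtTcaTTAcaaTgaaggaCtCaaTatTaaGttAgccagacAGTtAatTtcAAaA

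Capitals again mark the bases at which a copy differs from the coding gene and, in *Ppp1r2*, every position at which any copy differs. Ppp1r2-ps9 lay at 15.4, 22.01 and 21.0 CPM in fl/Y and 13.96, 17.7, 21.7 and 21.6 CPM in cKO/Y, with overlapping ranges.

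Of the autosomal members, 6 had their closest coding gene on the X chromosome, the direction of the known testis retrogenes. Besides 1700019M22Rik and Kif4-ps these were Rps4l, a copy of the ribosomal protein gene *Rps4x*, Zfa-ps, a copy of the zinc finger gene *Zfx*, Gm5334, a copy of the tetraspanin gene *Tspan7*, and AC159315.1, with a partial match to the acetyltransferase gene *Naa10*. Per length in fl/Y, Kif4-ps stood at 11.8 against 1.61 CPM per kb for *Kif4*, Rps4l at 25.3 against 8.99 for *Rps4x*, Zfa-ps at 2.86 against 1.45 for *Zfx* and Gm5334 at 24.8 against 0.347 for *Tspan7*. With 1700019M22Rik, the member was above its X-linked relative per length in all 5 pairs measured. *Naa10* has no value here. Because the members were chosen by their fl/Y level and the X-linked genes were not, this count is a description and supports nothing. Below the level lay 10 more autosomal processed pseudogenes with their closest gene on the X chromosome. Gm5334 lay at 17.5, 17.2 and 18.8 CPM in fl/Y and 7.44, 19.3, 20.5 and 24.99 CPM in cKO/Y, with the lowest value in cKO/Y replicate 1. In the other direction, 15 of the 20 X-linked members had their closest gene on another chromosome, which for Gm4916 was the Y-linked *Rbm31y*.

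The annotated retrogenes, which are coding genes and no members, gave a reference for these levels. All 9 retrogenes of the list and 8 of their 9 X-linked parents were listed (*Gyk* was not), and none passed an adjusted p of 0.05 for genotype or, by limma, an unadjusted p of 0.05. *Pgk2* lay at 704, 521 and 620.4 CPM in fl/Y and 430.2, 687, 583 and 678 CPM in cKO/Y. Its parent *Pgk1* lay at 8.18, 3.84 and 6.10 CPM in fl/Y and 6.51, 3.39, 9.45 and 12.1 CPM in cKO/Y. Per length in fl/Y, *Pgk2* stood at 378, the glycerol kinase copy *Gykl1* at 181, the centrin *Cetn1* at 198, *Rpl10l* at 68.2, *Pdha2* at 63.1, *G6pd2* at 19.4, *Cstf2t* at 14.3, *Rbmxl2* at 13.7 and *Utp14b* at 7.32 CPM per kb. Their parents stood at 2.69 (*Pgk1*), 4.35 (*Cetn2*), 8.99 (*Rpl10*), 1.77 (*Pdha1*), 2.54 (*G6pdx*), 6.55 (*Cstf2*), 1.85 (*Rbmx*) and 1.499 (*Utp14a*) CPM per kb. At 643 CPM per kb, 1700019M22Rik was above every retrogene of the list on this scale.

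Across all members, levels per length were set beside those of the closest gene. The members were chosen by their fl/Y level and the closest genes were not, so the counts are descriptions. Of 126 members whose closest gene was listed, 55 were higher and 71 lower per length than that gene in fl/Y, with a median of 59.8% of its level, and Pearson's r between log2 levels was 0.128 across the 126 pairs, some of which share a closest gene or reads. The ratio was lowest for Gm5844, at 0.979% of *Hsp90aa1*, and 20 members lay under 10% of their gene. At the other end, Gm5334 reached 71.4 times *Tspan7*, Dynlt1-ps1 53.6 times *Dynlt1f*, 1700049L16Rik 46.6 times *Jpt2*, 1700022A21Rik 46.1 times *Gpd1l*, Gm6981 35.6 times *Gapdh* and Gm13841 17.7 times *Rpl29*. Of these, Gm5334, 1700049L16Rik and 1700022A21Rik shared at most 3.34% of their words with other transcripts. In contrast, Dynlt1-ps1 and Gm13841 shared all of theirs and Gm6981 shared 67.8%. Over these words, reads of the copies cannot be told apart from those of other genes. Words found in any other gene count, so the shares of Gm13841 and Gm6981 do not measure overlap with *Rpl29* or *Gapdh* alone. Not divided by length, the fl/Y means of such pairs lay closer. They were 79.5 CPM for Dynlt1-ps1 and 15.7 CPM for *Dynlt1f*, and 98.9 CPM for 1700022A21Rik and 7.52 CPM for *Gpd1l*. Gm6981 had 45.5 CPM and *Gapdh* 5.25 CPM, and *Tspan7* had 2.45 CPM, with the values of Gm5334 given above. How the authors placed reads with several matches is not given in the sources used here.

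**Figure D3:**
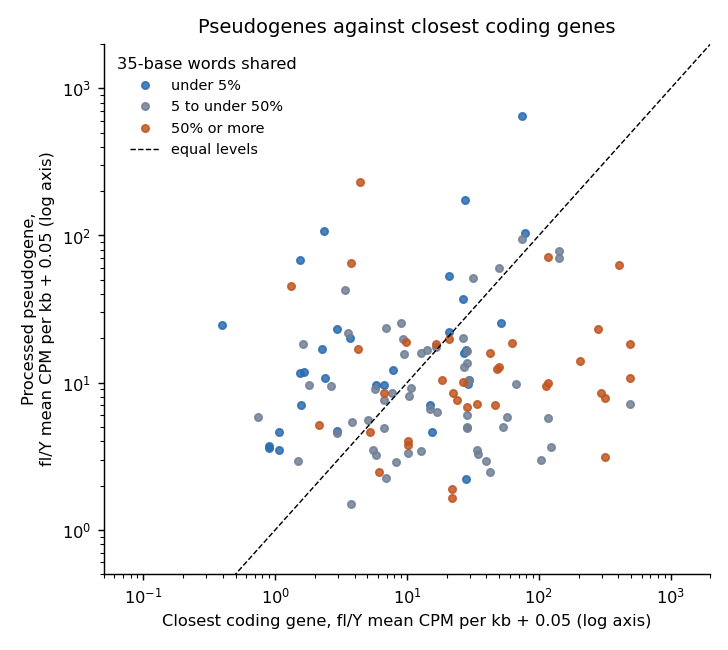
Mean level in the 3 fl/Y libraries of each of 126 processed pseudogenes (vertical axis) against its closest coding gene (horizontal axis), both as CPM per kb plus 0.05 on log axes, coloured by the share of 35-base words found in other genes; the dashed line marks equal levels. There are 55 points above the line and 71 below, and 1700019M22Rik, at 643 CPM per kb, is the highest.

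The comparison of cKO/Y with fl/Y asked whether loss of *Rlim* changed these transcripts. Because the members were chosen by their fl/Y mean, 1 side of this contrast, the counts and the median are descriptions and support nothing. In the limma fit with batch as a term, no member passed an adjusted p of 0.05 in either direction (adjusted p = 1.00 for each), against 0.00515% of 19400 genes lower, which is *Rlim* alone, and 0% higher. At an unadjusted p of 0.05, 9 members were lower in cKO/Y, against 1.37% of all genes, and none were higher, against 1.22%. Among genes of any kind with the same fl/Y minimum, these shares were 0.979% and 0.502%. edgeR's quasi-likelihood test on the recovered reads gave 9 lower and 0 higher, and DESeq2 gave 3 and 0, with none past an adjusted p of 0.05 in either. The shares of all genes above are those of limma, and those of edgeR and DESeq2 are not given here. Every cKO/Y library lay below every fl/Y library for 4 members, against 1.59% of all genes, and above for none, against 1.34%.

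The median log2 difference of the 150 was -0.09 (cKO/Y minus fl/Y), with 101 below and 49 above 0, where the median over all genes was -0.0055. Genes of any kind with the same fl/Y minimum had a median of -0.01. The median of the members was -0.04 within batch 1 and -0.12 within batch 2, and it came to -0.0025 without cKO/Y replicate 1, the library with the lowest summed CPM of the members (2928). When members were chosen by a cKO/Y mean of 5 CPM or more instead, 148 passed, with a median of -0.06 and 6 lower and 0 higher at an unadjusted p of 0.05. The count of 9 fell to 4 without fl/Y replicate 1, to 3 without fl/Y replicate 2 and to 5 without cKO/Y replicate 4.

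Among the 9, Ppp1r2-ps7 had the highest level, with 37.0, 45.6 and 38.5 CPM in fl/Y and 28.5, 32.1, 30.9 and 30.5 CPM in cKO/Y, with no overlap (log2 difference -0.39 ± 0.16 SE). Gm8674 on chromosome 13, resembling Gm906, lay at 11.2, 11.9 and 10.3 CPM in fl/Y and 3.72, 5.78, 8.82 and 7.73 CPM in cKO/Y, also without overlap (-0.86 ± 0.26). The histone H2B copy Hist3h2bb-ps lay at 7.99, 8.28 and 6.90 CPM in fl/Y and 3.72, 4.58, 5.35 and 5.82 CPM in cKO/Y, again without overlap (-0.65 ± 0.25). The fourth member without overlap, Gm12378 of the AF366264 family, is named here because its values were seen to be apart. It lay at 7.99, 8.68 and 9.55 CPM in fl/Y and 6.51, 5.18, 5.98 and 7.93 CPM in cKO/Y (-0.47 ± 0.23). In the closest genes the log2 difference was 0.05 ± 0.17 SE for *Ppp1r2* and 0.19 ± 0.26 for *Hist3h2ba*. It was -0.21 ± 0.34 for Gm906 and -0.09 ± 0.15 for AF366264.

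In the other 6 of the 9 the ranges of the genotypes overlapped. Gm6729 of the chromosome 10 cluster had a log2 difference of -0.38 ± 0.17 SE, its batch 1 libraries being the higher ones in both genotypes. Gstm2-ps1, a glutathione S-transferase copy, lay at 10.6, 9.49 and 16.4 CPM in fl/Y and 9.31, 3.39, 11.7 and 11.9 CPM in cKO/Y. Gm14165, a copy of *Rplp0*, lay at 12.8, 8.88 and 6.63 and 7.13, 5.58, 6.30 and 3.91 CPM. BC002163 lay at 7.06, 5.45 and 5.04 CPM in fl/Y and at 1.55, 4.19, 6.30 and 0.703 CPM in cKO/Y, from under the lowest to above the middle control. AC153368.1 copies *Gpx4*, a peroxidase gene abundant in spermatids, and lay at 4.65, 5.65 and 9.81 and 2.17, 2.59, 8.50 and 10.7 CPM, with batch 1 above batch 2 in both genotypes. The X-linked Gm14983, a copy of *Rpl34*, lay at 6.32, 5.65 and 3.45 CPM in fl/Y and 2.79, 3.59, 1.89 and 3.41 CPM in cKO/Y. The sizes within batch 1 and batch 2 were -0.31 and -1.22 for Gm8674, -0.32 and -0.44 for Ppp1r2-ps7 and -0.04 and -0.97 for AC153368.1.

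Within batch 1 alone, limma called Gm12896 lower in cKO/Y at an adjusted p of 0.05 (log2 difference -1.72), although its cKO/Y libraries there, at 97.0 and 6.52 CPM, lie on either side of the fl/Y library, at 85.9 CPM.

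**Figure D4:**
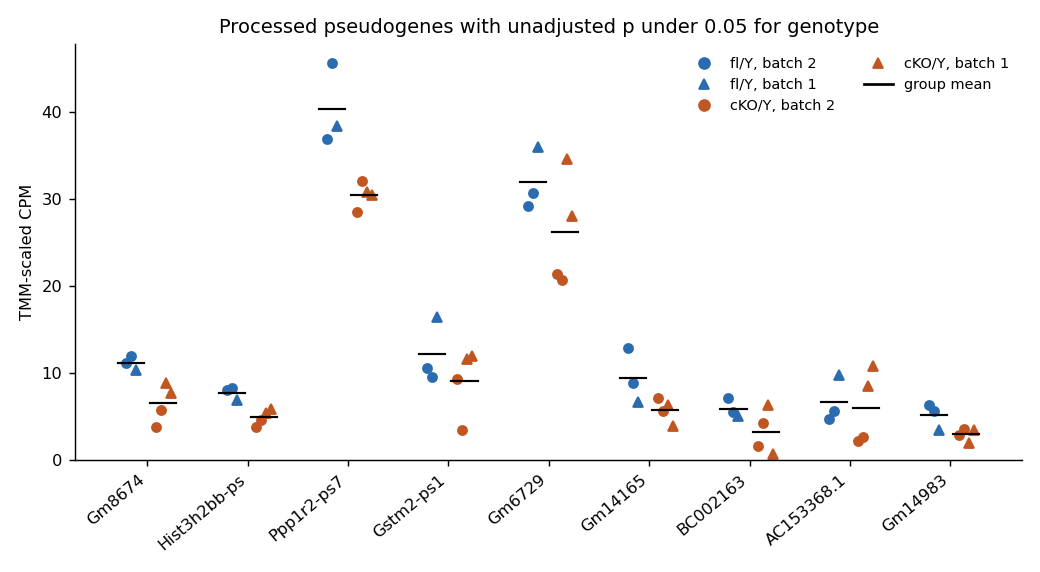
TMM-scaled CPM of the 9 members with an unadjusted limma p under 0.05 for genotype, 1 point per library (blue fl/Y, n = 3; orange cKO/Y, n = 4; circles batch 2, triangles batch 1; black lines group means). The 4 cKO/Y points of Gm8674, Hist3h2bb-ps and Ppp1r2-ps7 lie below all 3 fl/Y points, and none of the 9 passed an adjusted p of 0.05.

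On the higher side, the members with the smallest p going the same way in both batches were Ube2n-ps1, Gm15881, Gm11927, 4931440P22Rik, AC091683.3 and 1700001J11Rik. Ube2n-ps1 lay at 5.39, 4.24 and 7.96 CPM in fl/Y and 8.68, 6.18, 9.45 and 9.74 CPM in cKO/Y (log2 difference 0.44 ± 0.24 SE), and the groups overlapped. The other 5 had differences of 0.25 to 0.53. The 102 distinct closest genes that were tested gave none past an adjusted p of 0.05 by limma, edgeR or DESeq2 and none at an unadjusted p of 0.05 by limma in either direction, with a median log2 difference of -0.01. Of the 20 X-linked members, 14 lay below 0, with a median of -0.08.

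More members were called between batches than between genotypes, as were more of all genes tested (1370 between batches). This comparison was looked at after the values were seen, and a member high in 1 batch can owe its place to the fl/Y library of that batch. In the same limma fit, 16 members (10.7%) were higher in batch 1 at an adjusted p of 0.05, against 3.6% of all genes, and 8 were higher in batch 2, against 3.46%. Of the 11955 genes of any kind with a fl/Y mean of 5 CPM or more, 591 were higher in batch 1 and 593 in batch 2, so the 5.33% of members higher in batch 2 lie close to the share among genes of like level. Fitted alone, the 4 cKO/Y libraries, which the choice of members did not use, gave 3 members higher in batch 1 at an adjusted p of 0.05, against 0.191% of all genes, and 2 higher in batch 2, against 0.155%.

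Members higher in batch 1 were mostly those whose sequence is shared. Of the 16, 14 had at least 50% of their words in other transcripts, with a median of 81.7%, while the median of the 8 higher in batch 2 was 17.3%. Among members sharing under 5% of their words, 0 of 39 were higher in batch 1 and 4 in batch 2. Between 5 and 50% the counts were 2 and 3 of 70, between 50 and 90% they were 9 and 0 of 28, and at 90% or more they were 5 and 1 of 13. Of the closest coding genes, 18 of 102 were higher in batch 1 and 2 were higher in batch 2, where 552 and 507 of the 10714 protein-coding genes with a fl/Y mean of 5 CPM or more were. The batch 1 libraries held 2822168 to 8633399 reads and the batch 2 libraries 3933017 to 5966049, and the part of depth in these differences was not tested.

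**Figure D5:**
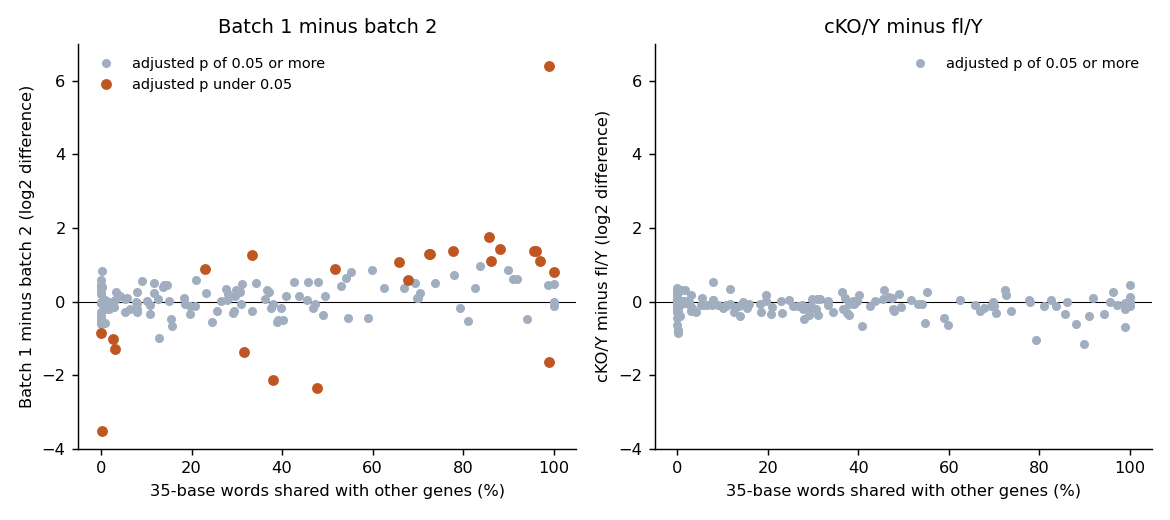
Log2 difference of each of the 150 members between batches (left, batch 1 minus batch 2) and between genotypes (right, cKO/Y minus fl/Y) on the log2(CPM + 0.5) scale, against the share of its 35-base words found in transcripts of other genes; red points have a limma adjusted p under 0.05. Of the 16 red points above 0 on the left, 14 lie at 50% or more, the point at 6.40 is Gm12896, and the right panel has no red point.

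The *Rplp0* copies illustrate how unlike members of 1 family can be. Gm8730 was higher in batch 1, at 125, 148 and 67.4 CPM, than in batch 2, at 27.1 to 50.6 CPM (log2 difference 1.75 ± 0.24 SE, adjusted p = 0.00181). Rplp0-ps1 went the other way, at 0.530, 0.630 and 0.803 CPM in batch 1 and 3.03 to 12.5 CPM in batch 2 (-2.12 ± 0.42, adjusted p = 0.0109). *Rplp0* itself differed by 0.18 (adjusted p = 0.595). In the stretch below, Gm8730 has 1 difference from *Rplp0*, Gm14165 has 4 and Rplp0-ps1 has 8.

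Gm8730: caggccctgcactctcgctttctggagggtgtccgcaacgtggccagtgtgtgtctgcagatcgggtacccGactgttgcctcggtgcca
Gm14165: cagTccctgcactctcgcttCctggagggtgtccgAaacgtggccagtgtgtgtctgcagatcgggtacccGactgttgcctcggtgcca
Rplp0-ps1: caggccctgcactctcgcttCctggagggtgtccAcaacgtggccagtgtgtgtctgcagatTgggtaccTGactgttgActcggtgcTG
Rplp0: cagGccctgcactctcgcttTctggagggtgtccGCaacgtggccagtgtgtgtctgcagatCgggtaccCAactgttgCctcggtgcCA

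The *Eef1a1* copies differed from each other as well. Gm5869 lay at 3.45, 1.57 and 1.51 CPM in batch 1 and at 9.48 to 14.9 CPM in batch 2 (log2 difference -2.35 ± 0.29 SE, adjusted p = 0.000660). Gm13456 lay between 18.9 and 27.7 CPM in all 7 libraries (0.10 ± 0.18, adjusted p = 0.767). *Eef1a1*, at a fl/Y mean of 1222 CPM, was higher in batch 1 (0.69, adjusted p = 0.0178). The 2 copies are told apart by few bases, shown here in capitals where they depart from the coding gene.

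Gm13456: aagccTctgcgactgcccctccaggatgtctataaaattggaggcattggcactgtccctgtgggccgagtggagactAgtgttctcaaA
Gm5869: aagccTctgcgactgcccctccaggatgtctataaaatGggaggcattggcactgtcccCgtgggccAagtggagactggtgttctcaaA
Eef1a1: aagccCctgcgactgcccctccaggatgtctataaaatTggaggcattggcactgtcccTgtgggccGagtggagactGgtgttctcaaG

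The widest batch differences belonged to members that were absent from whole batches. Gm12896 on chromosome 4 had 0 reads in all 4 batch 2 libraries, which allows up to 0.558 to 0.931 CPM, and lay at 85.9, 97.0 and 6.52 CPM in batch 1. It is therefore a member through fl/Y replicate 3 alone. It has the highest GC content of the members, 72.1% against a median of 47.0%. It had no coding match under the rules above, and shares 99.0% of its words with transcripts of other genes. The first 120 of its 226 bases show the composition.

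Gm12896: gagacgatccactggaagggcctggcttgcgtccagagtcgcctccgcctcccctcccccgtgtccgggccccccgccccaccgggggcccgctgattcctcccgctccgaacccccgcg

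AC159315.1 on chromosome 12 showed the reverse, with 0 reads in the 3 batch 1 libraries and 11.9, 7.27, 5.58 and 2.19 CPM in batch 2, although only 0.130% of its words are shared. The *Rpl15* copy Gm4294 lay at 3.46 to 4.32 CPM in batch 1 and 8.99 to 16.5 CPM in batch 2, and the zinc finger copy Zfp389 at 10.9 to 14.2 and 19.8 to 28.8 CPM. Gm9059, a second relative of 1700084M14Rik, lay at 7.43 to 9.54 CPM in batch 1 and 19.2 to 24.9 CPM in batch 2. Among those higher in batch 1, the tubulin copy Tubb4b-ps1 lay at 44.8 to 48.8 CPM in batch 1 and 18.6 to 28.1 CPM in batch 2. Ppp1r2-ps3, Gm6768 and the *Gapdh* copy Gm6981 were also in that set, and Ppp1r2-ps7 and Ppp1r2-ps9, which share almost no words with *Ppp1r2*, were not (adjusted p = 0.940 and 0.292).

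A single library decided the level of Gm1821, the *Ubb* copy. It lay at 149 CPM in fl/Y replicate 2 and between 8.06 and 32.4 CPM in the other 6 libraries, so its genotype difference of -1.17 ± 0.65 SE rests on that library, with 0.24 within batch 1, which does not hold it, and -2.10 within batch 2.

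The level that defines a member has no gap around it. Just inside lay Gm4925, Gm11927 and Gm13140, with fl/Y means of 5.01, 5.02 and 5.05 CPM, and just outside lay 4930529C04Rik, Gm13543 and AC166827.2, at 4.97, 4.96 and 4.96 CPM. The SDs of these 6 ran from 0.433 to 2.25 CPM over 3 libraries, wider than the distance to the level in each. With a minimum of 2 CPM there would be 334 members and with 10 CPM there would be 80.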

How the data were processed

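Total RNA of testis was sequenced in 7 libraries, 3 fl/Y and 4 cKO/Y. The authors deposited 1 table of signal values per gene, CPM divided by TMM-scaled library sizes with edgeR on GRCm38. The submitters' processing notes name HISAT2 2.1.0, featureCounts and edgeR, while the study's methods name other programs for alignment and counting, so which made the table is unsure. Strand use is not given in the sources used here. Steps between values gave whole reads for 100% of values in each library (within 0.001 read), and no column belonged to another sample. Intervals from 3 reads cover counting error only.

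Here limma 3.58.1 (R 4.3.3) was fitted to log2(CPM + 0.5) with genotype and batch, with a trended prior, for 19400 genes above 1 CPM in at least 3 libraries. Tests were two-sided, with Benjamini-Hochberg adjustment over all of them. The log scale understates changes of low genes. edgeR 4.0.16 and DESeq2 1.42.0 on the recovered reads were alternatives. Only the limma fit was tested on simulated data, which held no difference between batches. Closest genes came from BLAST+ 2.17.0 against GENCODE M21 coding transcripts (E value 1e-10, at least 150 bases), and shared sequence from 35-base words, the read length. A closest gene had to match on the same strand and not overlap the member. Tables were joined with pandas 2.3.3 in Python 3.11.15.

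The members and lists were chosen with earlier results of these data known. Named genes were *Rlim*, the 10 members with the highest fl/Y mean, the 6 lower and 6 higher with the smallest p and the same direction in both batches, any past an adjusted p of 0.05, 3 on each side of the level, the 2 highest of each parent family, the closest genes of these, and the listed retrogenes with their parents. Other members were named after their values were seen, as were the batch counts, the choice of members by the cKO/Y mean, the restriction by shared words and the fit to cKO/Y libraries alone. Other alternatives were other minimum levels, scalings, filters and pseudocounts, a replicate block, single batches and leaving out each library.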

Additional observations from a re-analysis of the deposited data

Results flagged for a closer look

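Of *Rlim* and the 40 named genes looked at, 1 had a cKO/Y library far from the others. Gm13456, an *Eef1a1* copy, lay at 18.9 CPM in cKO/Y replicate 1 and at 26.5 to 27.7 CPM in the other 3 cKO/Y libraries. Its gap to the nearest of them exceeds the 95% critical value of Dixon's test for 4 samples, which chance passes in about 1 of 20 groups.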

How the results depend on the processing

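The count of 0 members past an adjusted p of 0.05 held in every alternative but batch 1 alone, with 1 lower (Gm12896, by limma), and the count at an unadjusted p of 0.05 varied more. The 9 lower at an unadjusted p of 0.05 became 3 with DESeq2, 5 with no batch term, 16 at a minimum of 2 CPM, 4 at 10 CPM, 5 among members with under 50% shared words and 3 to 9 when single libraries were left out. The count of 0 higher became 1 in batch 1 alone and 0 to 2 with a library left out, 2 without fl/Y replicate 1 or cKO/Y replicate 1. The median of -0.09 ranged from -0.12 to -0.0025. The 150 members became 334 at 2 CPM, 80 at 10 CPM and 142 to 153 with a library left out. The 4 members lower without overlap became 10 at 2 CPM, 2 at 10 CPM and 2 after rescaling each library to the same sum. They were 5 to 12 with a library left out, namely 12 without fl/Y replicate 3 and 8 without cKO/Y replicate 2 or 3, since fewer libraries overlap less often. The 0 higher without overlap became 1 at 2 CPM and 1 to 4 with a library left out. The share of 0.324% of CPM became 0.381% at 2 CPM and 0.261% with under 50% shared words. The 16 members higher in batch 1 became 2 with under 50% shared words and 3 in the cKO/Y libraries alone, and the 8 higher in batch 2 became 2 in the cKO/Y libraries alone.

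*Rlim* was lower in every alternative. Its adjusted p was 2.61e-08 with DESeq2 and 0.00432 with edgeR's quasi-likelihood test. By limma the adjusted p was 0.872 in batch 2 alone (-1.29) and 0.921 with no batch term (-1.47). The difference was -1.52 to -1.28 with a library left out. With the replicate number as a block in place of the batch, it was -1.35 with a limma adjusted p of 0.307, and 6 members were lower at an unadjusted p of 0.05. Libraries of the same number correlated at 0.101, 0.066 and 0.392 in their deviations from the genotype means, in which the batch remains. Of the fl/Y libraries, replicates 2 and 3 correlated best with the cKO/Y library of the same number, and replicate 1 with cKO/Y replicate 2. These correlations cannot decide whether the numbers pair the samples, and the numbers were not taken to do so. Other causes of these changes were not tested. Over the 40 named genes, 72 of 754 alternative values had another sign and 0 newly passed an adjusted p of 0.05. Depth limits values near 3 reads, or 0.301 to 0.945 CPM.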
